A study of Homo sapiens with 12 samples.

Results

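Hypoxic LN229 cells that received siRNA against HIF2A were compared with hypoxic LN229 cells that received a control siRNA, on 3 arrays each, which are 6 of the 12 arrays of the series. The arrays were taken by their titles, which name hypoxic cells with HIF-2A siRNA and hypoxic cells with non-targeting siRNA. LN229 is an established line of human glioblastoma cells. Per the labels' protocols, cells were transfected 24 h after seeding, moved to 1% oxygen 48 h after transfection and harvested after a further 16 h. Both groups therefore carried an siRNA and both were hypoxic. The other 6 arrays are hypoxic cells with HIF-1A siRNA, treated alike, and cells kept in 20% oxygen with the control siRNA. The labels number the replicates of a group 1 to 3 and do not say that they are separate cultures, so the p-values rest on the spread of these samples alone, and that spread may be technical. The model is 1 cell line with a transient knockdown, and the siRNA sequences were not used here.

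Hypoxia-inducible factors are pairs of an oxygen-regulated alpha subunit and the constant partner ARNT. In air, prolyl hydroxylases mark the alpha subunits for binding by the VHL protein and for breakdown, and in low oxygen the pairs gather on DNA at hypoxia response elements. HIF1A encodes HIF-1A, best known for inducing glycolysis, and EPAS1 encodes HIF-2A, known for erythropoietin, iron uptake and growth factor genes, and studied in glioblastoma for its link to stem-like cells. The comparison asks which transcripts of hypoxic cells differ when EPAS1 is silenced.

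One gene, EPAS1 itself, passed the test in this comparison. Of 14232 genes measured, 1 was lower and 0 were higher with HIF2A siRNA at an adjusted p under 0.05 (limma, Benjamini-Hochberg), which is 0.00703% of the genes. With quantile or cyclic loess normalization of the arrays 3 were lower and 1 was higher. At an unadjusted p under 0.05 there were 502 genes, 3.53% of those tested, of which 247 were lower and 255 higher. If no gene differed, a share of 0.05 would be expected. The count of 502 depended on the setting: it was 845 with quantile normalization, 927 with cyclic loess normalization and 1399 with array weights. Leaving out 1 array gave 362 to 587. None of the 36 measured genes on a list of genes linked to HIF-2A was called. They are named HIF-2A targets here for short, and a link to HIF-2A does not exclude one to HIF-1A.

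EPAS1 (Entrez gene 2034, chr2:46297407-46386697 in GRCh38.p14) was read by 1 probe set, 2480383. On the 3 hypoxic control arrays its log2 expression was 9.74, 9.57 and 9.83. With HIF2A siRNA it was 7.18, 6.99 and 7.18. Every HIF2A siRNA array was more than 2 log2 units below every control array. The change was -2.59 (SE 0.15, n = 3 per group; 95% interval -2.92 to -2.27; limma adjusted p = 3.13e-05), 6.04-fold lower, with 16.6% of the control value left. In normoxia EPAS1 read 8.55, 8.42 and 8.59, so hypoxic cells with HIF2A siRNA also lay below normoxic cells (-1.40, limma adjusted p = 2.72e-04). HIF-2A protein was not measured here.

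The HIF1A siRNA arrays had EPAS1 values of 8.60, 8.08 and 8.02, between those of the other hypoxic groups. EPAS1 was lower with HIF2A siRNA than with HIF1A siRNA by a direct test (-1.11, limma adjusted p = 0.00171). HIF1A, the gene of the other alpha subunit, read 11.72, 11.40 and 11.26 with control siRNA and 11.31, 11.01 and 11.45 with HIF2A siRNA. The HIF1A ranges overlapped, and the change was -0.21 (SE 0.27; interval -0.80 to 0.39), which was not called.

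**Figure D1:**
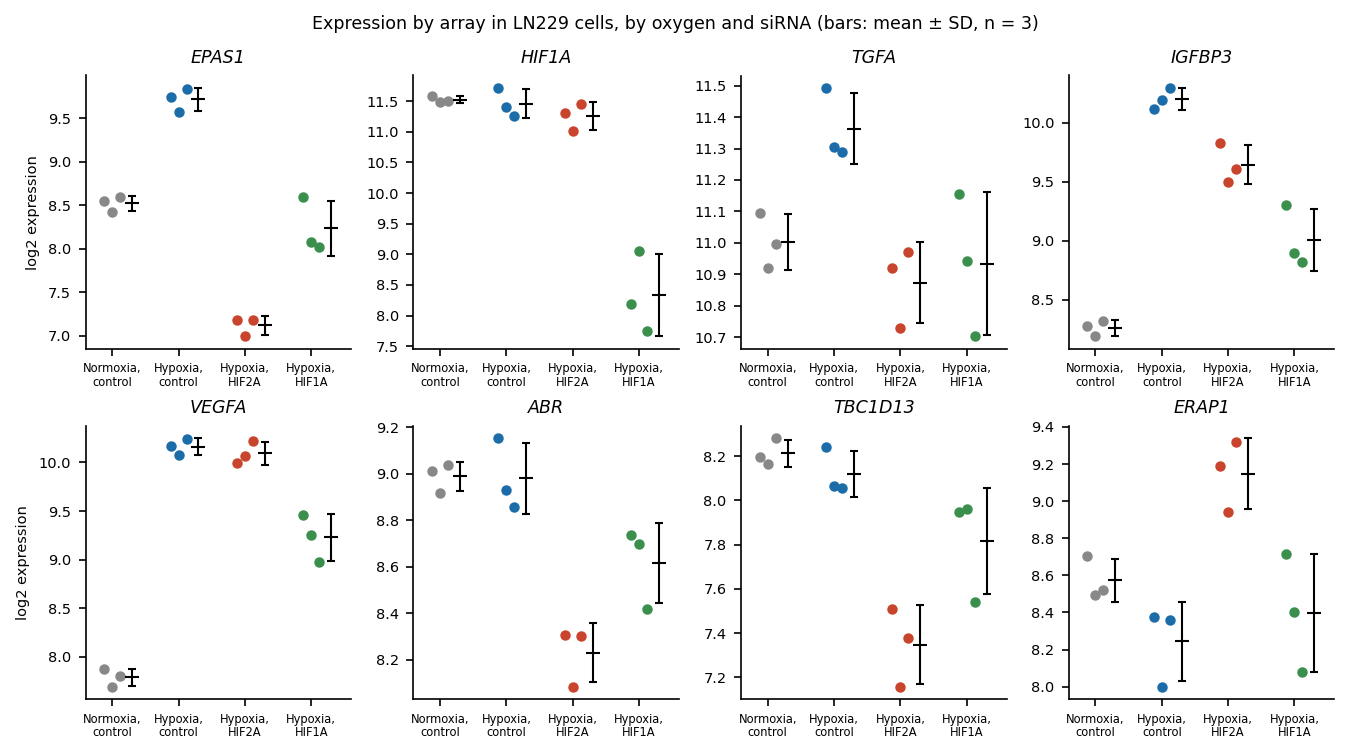
Log2 expression of 8 genes on each array (points), with mean and SD (bars, n = 3) for normoxia with control siRNA and hypoxia with control, HIF2A or HIF1A siRNA; each panel has its own axis, which does not start at 0. EPAS1 lay between 6.99 and 7.18 with HIF2A siRNA and between 9.57 and 9.83 with control siRNA, whereas the VEGFA values of these groups overlapped.

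The promoter of EPAS1 is shown because it is the gene the siRNA lowered and one that rose in hypoxia with control siRNA (1.19 log2, limma adjusted p = 7.15e-04). The window holds 250 bases before and 50 bases after the transcription start, from RefSeq on GRCh38.p14, at chr2:46297157-46297456 on the plus strand. Capitals mark the core of the hypoxia response element, searched as ACGTG and GCGTG on both strands, where both strands of an overlapping palindrome count separately. It occurs 1 time here.
EPAS1: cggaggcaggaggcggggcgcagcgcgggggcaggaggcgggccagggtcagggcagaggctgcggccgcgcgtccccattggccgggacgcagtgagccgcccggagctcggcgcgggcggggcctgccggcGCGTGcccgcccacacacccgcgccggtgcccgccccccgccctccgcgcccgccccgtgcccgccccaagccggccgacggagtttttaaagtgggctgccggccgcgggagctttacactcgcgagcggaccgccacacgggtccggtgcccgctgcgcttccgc
The core is common: 48.4% of the 35116 windows in the promoter table hold it, and 57.2% of the 11386 measured genes with a window. Among HIF-2A targets with a window it was found in 19 of 27, or 70.4%. These are matches of letters only.

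The other genes of the HIF pathway showed small differences. Of 13 listed, 11 were measured and EPAS1 was the 1 called. The median change of these 11 was -0.10 against -0.01 for all genes. It includes EPAS1, the siRNA's own target, and so does not describe the other genes alone. ARNT, the shared partner, had a change of 0.06 (interval -0.32 to 0.43). ARNT2, its paralogue, read 8.74, 8.50 and 8.45 with control siRNA and 8.36, 8.09 and 8.24 with HIF2A siRNA. The HIF2A siRNA values of ARNT2 lay wholly below, with a change of -0.33 (interval -0.59 to -0.07) that was not called. HIF1A siRNA gave ARNT2 a change of -0.91 against the same control arrays (limma adjusted p = 0.00139). VHL, the ubiquitin ligase component, changed by 0.07 (-0.15 to 0.29) and the hydroxylase EGLN2 by 0.02 (-0.24 to 0.29). HIF1AN, the asparagine hydroxylase that limits transactivation, had the wide interval -0.58 to 0.53. HIF3A, the third alpha subunit, changed by -0.16 (-0.47 to 0.14), and the coactivator CREBBP by -0.10 (-0.35 to 0.15).

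The data are log2 values of 22011 probe sets. Array medians were 6.71 to 6.79 in the control group and 6.70 to 6.79 in the HIF2A siRNA group, and upper quartiles were 8.27 to 8.50 and 8.24 to 8.44. Pairs of arrays within a group correlated at 0.986 to 0.991 over all genes (6 pairs), and pairs across the groups at 0.984 to 0.993 (9 pairs). Glioma and astrocyte markers were mixed: S100B, FABP7, SOX9, NES and VIM were above the array median, GFAP and ALDH1L1 lay below it, and AQP4, SLC1A3 and SLC1A2 were no higher than the low-level reference described below. Above that reference were 2 of 5 neuronal, 5 of 7 oligodendrocyte, 2 of 8 microglial, 3 of 8 endothelial and 4 of 7 epithelial genes, of which 2, 3, 1, 1 and 3 were also above the array median. Summed linear values of the 10 glioma markers were 11180 to 11750 with control siRNA and 11290 to 11900 with HIF2A siRNA. Such sums rest mostly on the brightest probe sets, here VIM and FABP7 with mean control levels of 12.39 and 11.85 log2. The summed ranges overlapped in all 6 marker lists, and 0 of their genes were called. In bulk RNA, fewer cells of a type and less RNA per cell cannot be told apart.

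Most genes could be bounded to a small change. The median standard error was 0.14 log2 and the median interval reached 0.30 to each side, or 1.23-fold. The 95% interval lay wholly within 1.5-fold in either direction for 11653 genes (81.9%) and within 2-fold for 14015 (98.5%). Of the 10484 genes above the low-level reference described below, 8507 (81.1%) were within 1.5-fold. These intervals are per gene and are not adjusted for the number of genes. The middle 90% of changes ran from -0.23 to 0.25, and 80 genes differed by 1.5-fold or more, 37 lower and 43 higher. In 1332 genes (9.36%) the 3 HIF2A siRNA values lay wholly above or below the 3 control values, 697 below and 635 above. The same held for 20 of the 225 olfactory receptor genes (8.89%) that set the low-level reference described below. Lack of overlap alone therefore marks no gene as changed.

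**Figure D2:**
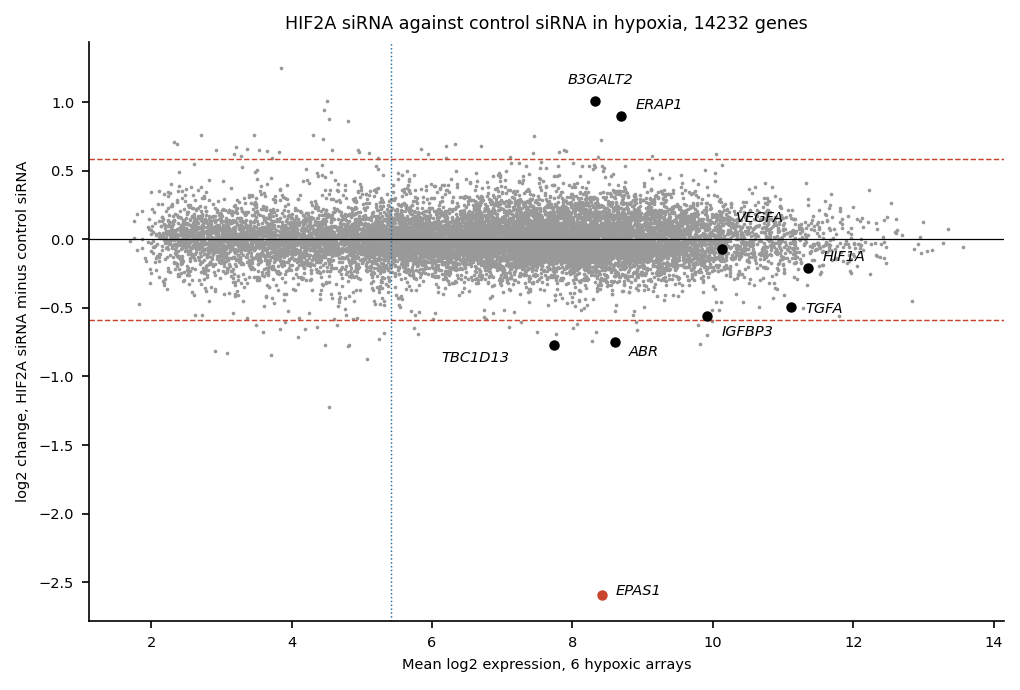
Change with HIF2A siRNA (log2, vertical axis) against mean log2 expression over the 6 hypoxic arrays for 14232 genes; dashed lines mark 1.5-fold, the dotted line the low-level reference of 5.41, and named genes are black except EPAS1 in red. EPAS1 at -2.59 stands apart from all others, of which B3GALT2 at 1.01 and ABR at -0.75 are among the next well-expressed genes.

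Whether the HIF-2A targets were expressed at all was read against olfactory receptor genes, which a glioblastoma line is not known to make. The 95th percentile of 225 such genes on the hypoxic control arrays was 5.41 log2, and 0 of them reached the median of the control arrays, 6.74. Of the 41 listed targets, 36 were measured, and 24 were above the reference. These comprise 19 above the array median and 5 between the marks. The remaining 12 were at or below the reference. AREG, POU5F1, NANOG and SOX2 were among those not analysed here. The count above was 26 with the arrays' lower quartile of 4.76 as the mark. A level here describes a probe set, whose brightness also depends on its probes.

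Targets above the array median included the iron transporter SLC11A2, the iron reductase CYBRD1, the growth factors TGFA and VEGFA, the cyclin CCND1, the binding protein IGFBP3, the proteases MMP2 and MMP14 and the glucose transporter SLC2A1. Erythropoietin itself, EPO, read 6.33, 6.54 and 6.25 with control siRNA and 6.42, 6.54 and 6.17 with HIF2A siRNA, in the zone between the marks. The EPO values overlapped, and the difference between hypoxia and normoxia was 0.03. PDGFB, DLK1, DLL4 and EGLN3 lay in the same zone. The 12 genes at or below the reference were SLC40A1, EREG, SERPINB9, PROM1, LOX, CXCR4, KDR, TEK, ANGPT2, CDH5, PLIN2 and ARG1. PROM1, which encodes the stem cell marker CD133, read 2.61 to 2.71 with control siRNA and 2.71 to 2.80 with HIF2A siRNA.

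Across the 36 targets the median change with HIF2A siRNA was -0.02, against -0.01 over all genes. Of these, 21 were below 0, and the values ran from -0.56 for IGFBP3 to 0.34 for MMP14. In 34 of 36 the interval lay within 1.5-fold, and in all 36 within 2-fold. The exceptions to the narrower bound were TGFA and IGFBP3, both above the array median. These counts and the median include the 12 targets at or below the low-level reference, where a fall could hardly show. In 6 genes the arrays did not overlap (16.7%, against 9.36% of all genes): TGFA, IGFBP3, PLAUR, LPCAT1 and SERPINB9 below the control values and MMP14 above.

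**Figure D3:**
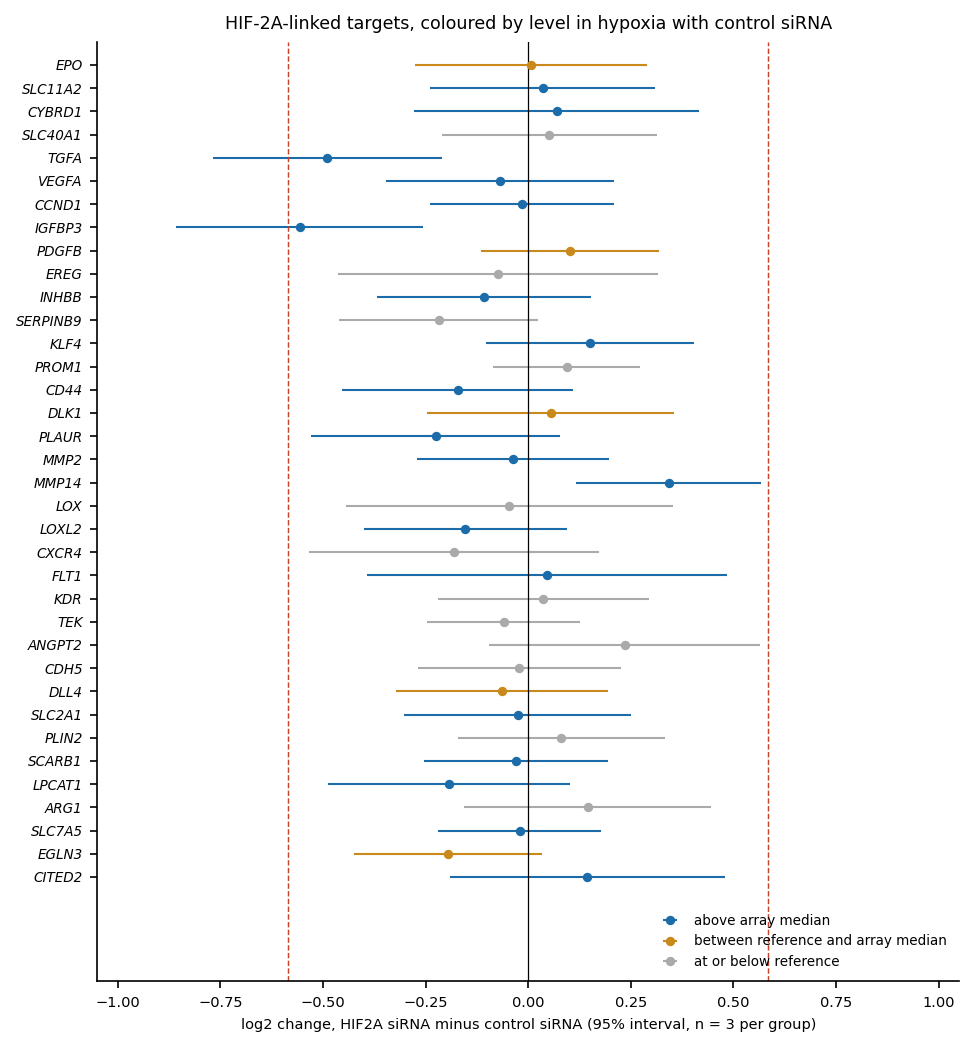
Change with HIF2A siRNA (log2, horizontal axis) and its 95% interval for the 36 HIF-2A targets measured, with 1.5-fold marked by dashed lines and colours for the level in hypoxia with control siRNA. The intervals of TGFA and IGFBP3 reach past a 1.5-fold fall, and the interval of MMP14, 0.12 to 0.57, lies above 0.

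Among the growth factor and cell cycle targets, TGFA, which encodes the epidermal growth factor receptor ligand TGF-alpha, read 11.49, 11.31 and 11.29 with control siRNA. With HIF2A siRNA it read 10.92, 10.73 and 10.97, so that all 3 arrays were lower. The change was -0.49 (SE 0.13; interval -0.77 to -0.21), with an unadjusted p of 0.00266 and a limma adjusted p of 0.98. In hypoxia against normoxia TGFA differed by 0.36 (limma adjusted p = 0.0932), and by 0.47 with quantile normalization, which called it (limma adjusted p = 0.0036). In normoxia it read 11.09, 10.92 and 11.00, which is near the HIF2A siRNA values. Over all 19 settings tried the TGFA change stayed between -0.54 and -0.42, with a lowest adjusted p of 0.065. HIF1A siRNA gave a TGFA change of -0.43 against the same control arrays (limma adjusted p = 0.0526, and 0.0348 with quantile normalization).

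The TGFA window is shown because TGFA was the HIF-2A target with the lowest adjusted p under any setting. It lies at chr2:70553777-70554076 on the minus strand (RefSeq, GRCh38.p14) and holds 0 copies of the core motif.
TGFA: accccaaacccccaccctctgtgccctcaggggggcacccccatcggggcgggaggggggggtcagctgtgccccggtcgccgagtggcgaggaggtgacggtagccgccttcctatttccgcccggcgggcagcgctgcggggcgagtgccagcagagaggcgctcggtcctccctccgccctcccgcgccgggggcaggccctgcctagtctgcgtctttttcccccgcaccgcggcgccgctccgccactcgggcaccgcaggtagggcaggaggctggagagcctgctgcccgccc

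IGFBP3, an insulin-like growth factor binding protein, read 10.11, 10.20 and 10.29 with control siRNA and 9.83, 9.50 and 9.61 with HIF2A siRNA. Its change of -0.56 (SE 0.14; interval -0.86 to -0.26; limma adjusted p = 0.81) was the lowest in the list and was not called. Hypoxia raised IGFBP3 by 1.94 from 8.28, 8.19 and 8.32, and the values with HIF2A siRNA remained above all normoxic ones. By the direct test IGFBP3 was higher with HIF2A siRNA than with HIF1A siRNA (0.64, limma adjusted p = 0.0197), a call lost with quantile normalization (0.36, limma adjusted p = 0.0715).

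VEGFA, the endothelial growth factor, read 10.17, 10.07 and 10.25 with control siRNA and 9.99, 10.07 and 10.22 with HIF2A siRNA. The groups overlapped, and the change of -0.07 had an interval from -0.35 to 0.21. In normoxia VEGFA read 7.87, 7.69 and 7.80, a rise in hypoxia of 2.37 log2 (limma adjusted p = 2.06e-06). CCND1, known as a HIF-2A target in kidney cancer, had a change of -0.01 (-0.24 to 0.21). INHBB, an activin subunit, had -0.11 (-0.37 to 0.15) and PDGFB 0.10 (-0.12 to 0.32).

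The iron and erythropoiesis targets had changes of 0.01 to 0.07, with 0 of 4 apart from the control values. SLC11A2 read 8.71, 8.46 and 8.56 against 8.68, 8.54 and 8.60, with an interval of -0.24 to 0.31. CYBRD1 had an interval of -0.28 to 0.42. Neither gene was called in hypoxia.

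In the matrix and migration group MMP14, a membrane-bound metalloprotease, was higher with HIF2A siRNA. It read 9.11, 9.17 and 9.02 with control siRNA and 9.52, 9.44 and 9.37 with HIF2A siRNA, without overlap. The change was 0.34 (SE 0.10; interval 0.12 to 0.57) and was not called after adjustment. PLAUR, the urokinase receptor, had -0.23 (-0.53 to 0.08), and the lysyl oxidase LOXL2 had -0.15 (-0.40 to 0.09) after a rise of 0.98 in hypoxia. The gelatinase MMP2 had -0.04 (-0.27 to 0.20).

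Among vascular, metabolic and stemness targets all intervals lay within 1.5-fold. Only 2 of 6 vascular, 4 of 6 metabolic and 3 of 5 stemness targets were above the low-level reference. For the others a fall could hardly show, so their intervals do not bound a response. FLT1, a VEGF receptor, had 0.05 (-0.39 to 0.48) and SLC2A1, the glucose transporter GLUT1, had -0.03 (-0.30 to 0.25). The adhesion receptor CD44 had -0.17 (-0.45 to 0.11) and the pluripotency factor KLF4 0.15 (-0.10 to 0.40). LPCAT1, a lysophospholipid acyltransferase, had -0.19 (-0.49 to 0.10). The prolyl hydroxylase gene EGLN3 had -0.20 (-0.43 to 0.03), and the coactivator-binding CITED2 had 0.14 (-0.19 to 0.48).

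In hypoxia against normoxia, 7 of the 36 targets were called higher and 0 lower, where 3.37% of all genes were called higher and 8.95% lower (480 and 1274 genes, or 946 and 1200 with quantile normalization, which called 10 targets higher). The comparison of HIF1A siRNA with control siRNA called 7 of the 36 lower, where 10.2% of all genes were (1451 lower and 122 higher, or 1124 and 726 with quantile normalization, which called 6 targets lower). These comparisons share the hypoxic control arrays with that of HIF2A siRNA. By the direct test 5 of the 36 were higher with HIF2A siRNA than with HIF1A siRNA, where 8.53% of all genes were higher, and 0 were lower (0.899% of all genes). They were VEGFA (0.86), FLT1 (0.82), CITED2 (0.65), IGFBP3 (0.64) and MMP14 (0.42). With quantile or cyclic loess normalization VEGFA and FLT1 were the 2 called higher, and LPCAT1 was called lower.

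The 10 genes with the largest rises in hypoxia were chosen on the hypoxic control and the normoxic arrays, so their values against either group are descriptions. With HIF2A siRNA they lay 2.10 to 4.02 log2 above normoxia. Differences from the control siRNA, whose high values chose the genes, were -0.53 to 0.31, with 6 below 0, and 0 were called. By the direct test all 10 were higher with HIF2A siRNA than with HIF1A siRNA, by 0.87 to 3.45. These differences use the values of neither group, but the p-values share the spread estimated on all 12 arrays.

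BEND5, a BEN-domain gene, read 10.10, 9.62 and 9.74 with control siRNA, 10.16, 9.38 and 10.19 with HIF2A siRNA and 6.64, 6.40 and 6.35 with HIF1A siRNA. Only the last 3 stood apart from the control values. ALDOC, a glycolytic aldolase, had a change of 0.02 (interval -0.31 to 0.36), and the enolase ENO2 had -0.06 (-0.33 to 0.21). NRN1, which encodes neuritin, had 0.25 (-0.20 to 0.70) and TMEM45A 0.31 (-0.23 to 0.85).

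Intervals below 0 were seen for ANGPTL4, CP and NDRG1 among these 10, against the control arrays that also chose them, and none was called. ANGPTL4, an inhibitor of lipoprotein lipase, read 9.35, 9.32 and 9.13 with control siRNA and 8.99, 8.50 and 8.81 with HIF2A siRNA, without overlap. Its change was -0.49 (-0.85 to -0.14), beside a rise in hypoxia of 3.32. CP, the ferroxidase ceruloplasmin, had -0.53 (-0.95 to -0.10), and NDRG1, a stress-responsive gene, -0.25 (-0.48 to -0.01). The hormone gene STC1 had -0.24 (-0.55 to 0.08) and DEPP1 -0.33 (-0.77 to 0.10).

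**Figure D4:**
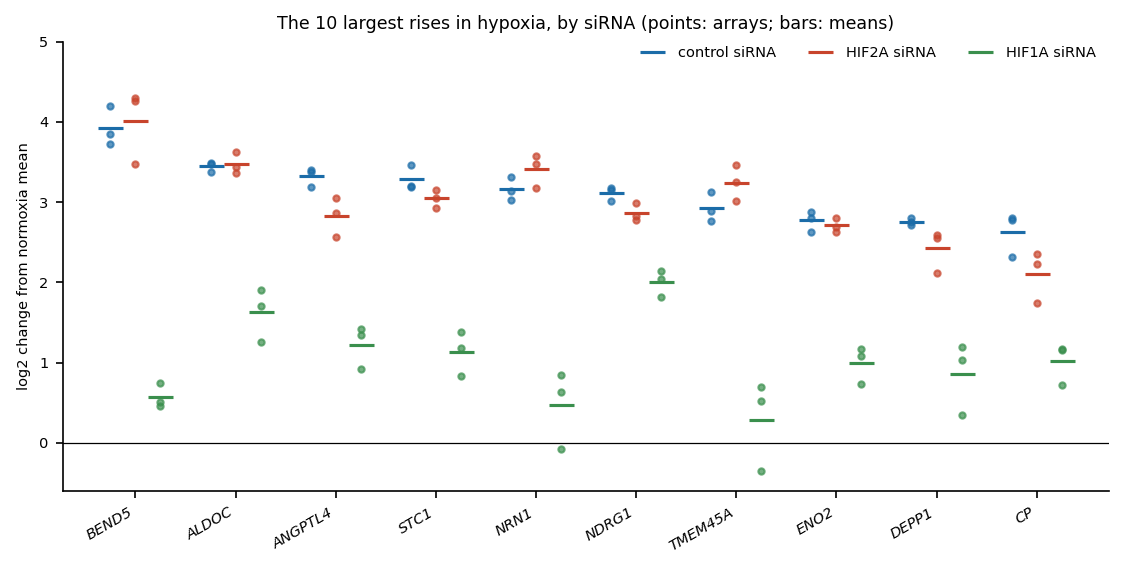
Log2 change from the normoxic mean for the 10 genes with the largest rises in hypoxia, by siRNA, with points for arrays and bars for means (n = 3). With HIF2A siRNA the mean rises were 2.10 to 4.02, and all arrays lay above those with HIF1A siRNA.

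Apart from EPAS1, 303 genes were called higher in hypoxia by at least 1.5-fold, and 0 of them were called with HIF2A siRNA. The median change was -0.07 with HIF2A siRNA and -0.84 with HIF1A siRNA, both against the control arrays that also chose the genes. For 233 of the 303 (76.9%) the interval held no 1.5-fold fall, and for 300 no 2-fold fall. In 58 the arrays did not overlap, 45 below and 13 above, which is 19.1% beside 9.36% of all genes, and nothing is read from it because the same control arrays chose the genes. With HIF2A siRNA 251 of the 303 were called higher than in normoxia (2.85% of all genes were), with a median of 0.81 above normoxia beside 0.87 with control siRNA. These values reuse the normoxic arrays that chose the genes and are given as a description.

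The means of the 2 siRNA groups were not used to choose these genes. Their spread was, because 1 estimate from all 12 arrays served both the choice and the direct test. The direct test called 229 of the 303 (75.6%) higher with HIF2A siRNA than with HIF1A siRNA and 0 lower. The median difference was 0.81. Over all genes, 8.53% were called higher (1214 higher and 128 lower). Quantile normalization moved the median difference of all genes from 0.06 to -0.08 and their calls to 981 higher and 799 lower, and of the 303 it called 202 higher and 0 lower. The third HIF1A siRNA array had a narrower range of values (upper quartile 7.88), and without it 170 were called. Leaving out the first HIF2A siRNA array gave 140 and the third 157. A fit on the 6 arrays of the 2 siRNAs alone, which has its own spread, gave 87, where 0.864% of all genes were higher. Of the 303, 0 were lower each time. EPAS1 was also lower in the HIF1A siRNA group than in the control group (-1.48, limma adjusted p = 3.13e-04), whose part in these differences was not tested.

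**Figure D5:**
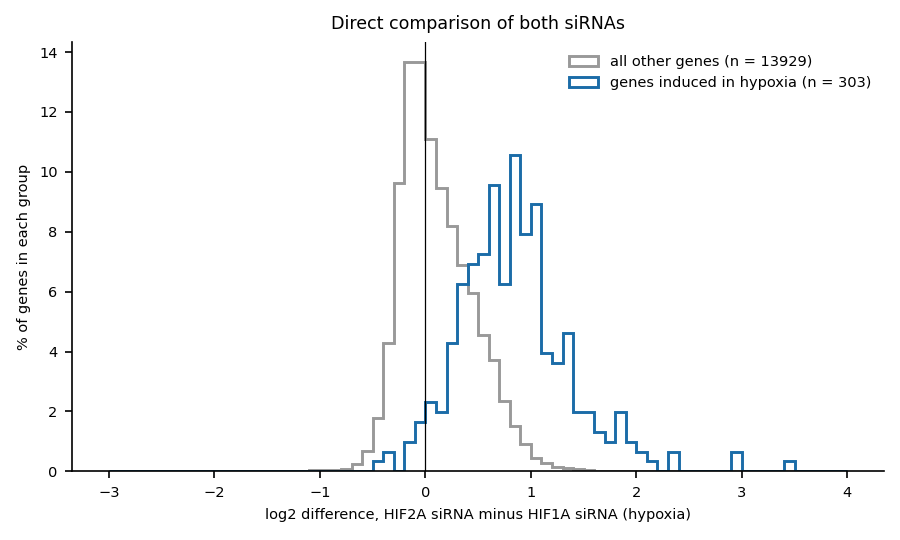
Distribution of the log2 difference between HIF2A siRNA and HIF1A siRNA in hypoxia, as percent of genes per 0.1 log2, for 303 genes induced in hypoxia and the other 13929 genes. The medians were 0.81 and 0.05.

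Beyond EPAS1, the smallest p-values belonged to ABR and TBC1D13, 2 genes on no list, which were singled out after their values were seen. ABR read 9.15, 8.93 and 8.86 with control siRNA and 8.30, 8.08 and 8.30 with HIF2A siRNA. All 3 were below the controls, with a change of -0.75 (SE 0.12; interval -1.01 to -0.49; limma adjusted p = 0.427). TBC1D13, a RAB GTPase-activating protein, read 8.24, 8.06 and 8.06 against 7.51, 7.16 and 7.38. This was a change of -0.77 (SE 0.13; interval -1.07 to -0.48; limma adjusted p = 0.514), again without overlap. With quantile normalization of the arrays ABR and TBC1D13 were called (limma adjusted p = 0.00602 and 0.00714). In hypoxia against normoxia ABR differed by -0.01 and TBC1D13 by -0.09, and neither was called. HIF1A siRNA gave -0.36 for ABR and -0.31 for TBC1D13 against the same control arrays, and neither was called. With HIF2A siRNA relative to HIF1A siRNA ABR differed by -0.39 and TBC1D13 by -0.47, or by -0.67 and -0.73 with quantile normalization. This reuses the HIF2A siRNA arrays on which the genes were singled out and is given without a test.

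The windows of ABR and TBC1D13 are shown because their calls turned on the scaling of the arrays. They are from RefSeq on GRCh38.p14, at chr17:1229673-1229972 on the minus strand and at chr9:128787003-128787302 on the plus strand. ABR holds 0 copies of the core motif and TBC1D13 holds 4, of which a pair is the palindrome CACGTG read on both strands.
ABR: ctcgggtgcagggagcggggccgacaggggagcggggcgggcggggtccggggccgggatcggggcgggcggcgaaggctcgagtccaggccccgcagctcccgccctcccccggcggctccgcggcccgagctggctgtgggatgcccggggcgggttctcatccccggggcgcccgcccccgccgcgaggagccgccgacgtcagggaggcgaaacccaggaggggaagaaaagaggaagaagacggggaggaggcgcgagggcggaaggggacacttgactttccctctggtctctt
TBC1D13: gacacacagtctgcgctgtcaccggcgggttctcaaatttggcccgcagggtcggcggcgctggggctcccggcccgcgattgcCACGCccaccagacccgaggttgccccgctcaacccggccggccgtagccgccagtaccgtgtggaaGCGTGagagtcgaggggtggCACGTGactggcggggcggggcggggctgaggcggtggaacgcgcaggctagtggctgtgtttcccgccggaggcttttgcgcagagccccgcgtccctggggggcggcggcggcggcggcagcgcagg

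ERAP1 and B3GALT2, singled out in the same way, had the largest higher values among the well-expressed genes. ERAP1, an aminopeptidase that trims peptides for antigen presentation, read 8.37, 8.0 and 8.36 with control siRNA and 9.19, 8.94 and 9.32 with HIF2A siRNA. The difference of 0.90 (interval 0.53 to 1.28) was not called, and with quantile normalization it was (limma adjusted p = 0.0209). B3GALT2, a galactosyltransferase, read 7.96, 7.51 and 7.99 against 8.84, 8.56 and 9.10, a difference of 1.01 (0.60 to 1.42). Against the same control arrays B3GALT2 was called lower with HIF1A siRNA (-1.37, limma adjusted p = 0.00173), and the difference between the siRNAs was 2.38, on the HIF2A siRNA arrays that also singled it out.

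Other non-overlapping shifts, also singled out after their values were seen, were likewise not called. The lower ones included CEMIP2, a hyaluronidase (-0.76), the chemokine CXCL8 (-0.74) and the matrix protein SPP1 (-0.70). The RNA-binding LSM1 (-0.69) and HAS2, a hyaluronan synthase (-0.68), were also lower. HTR1A, a serotonin receptor, had -0.87 at a low level. Its mean with control siRNA lay just above the low-level reference, and all its HIF2A siRNA values lay below that reference. HTR1A was also among the genes called higher in hypoxia, which the same control arrays chose. SPP1, which encodes osteopontin, read 10.26, 10.11 and 10.43 against 9.55, 9.50 and 9.65. The higher ones included ABI3BP (0.75), the Mediator subunit MED20 (0.72), LRRC15 (0.68), the protease ADAMTS9 (0.66) and the interleukin receptor IL7R (0.64). Values farther from 0 occurred at low levels, such as CLDN6 at 1.25 with a mean control level of 3.23. With HIF1A siRNA, HAS2 and IL7R were both called lower against the same control arrays (-1.86 and -1.13, limma adjusted p = 0.00258 and 0.0156).

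In the other gene lists 0 members were called. The 23 measured HIF-1A targets had a median of -0.06, and PFKFB3, a regulator of glycolysis, the lowest value: 10.25, 10.23 and 10.25 with control siRNA against 9.88, 9.61 and 9.70. That is a change of -0.51 (-0.80 to -0.23). The 18 mesenchymal and stem genes had a median of -0.10, with the transcription factor SNAI2 at -0.51 (-0.79 to -0.23). HIF1A siRNA, against the same control arrays, gave -0.82 for PFKFB3 and -0.85 for SNAI2 (limma adjusted p = 0.00387 and 0.0029). The 17 ATF4-linked genes of the amino acid and stress response had the highest median, 0.17. CHAC1 was at 0.43 (-0.06 to 0.92) and DDIT3 at 0.33 (-0.02 to 0.67). Both intervals held 0, and the DDIT3 values overlapped the controls. Intervals apart from 0 were found for 3 of the 17 and for 502 of all 14232 genes. In 6 of the 17 (35.3%) the values lay above the controls without overlap and in 0 below. Over all genes 9.36% did not overlap in either direction, and 635 of 14232 lay above. This list had the highest share, and the others ran from 0% (such as lipid storage) to 33.3% (MYC network, 3 of 9).

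Among genes of proliferation, the 24 G1/S genes had a median of 0.06, and RRM2, a ribonucleotide reductase subunit, had 0.36 (0.11 to 0.61). The 18 G2/M genes had a median of -0.03. MYC read 8.59, 8.44 and 8.57 with control siRNA and 9.03, 8.67 and 9.16 with HIF2A siRNA, a difference of 0.42 (-0.01 to 0.85). The MYC antagonist MXI1 had -0.29 (-0.56 to -0.02), and -1.28 with HIF1A siRNA against the same control arrays (limma adjusted p = 2.69e-04). The 14 cholesterol and fatty acid genes had a median of 0.09, with the synthase HMGCS1 at 0.50 (0.09 to 0.92). The 26 interferon response genes had a median of -0.02, with IFIT2 lowest at -0.68 (-1.19 to -0.16). HIF1A siRNA gave IFIT2 a change of -0.90 against the same control arrays (limma adjusted p = 0.035). The 11 small RNA genes, which serve siRNA action, had a median of 0.04 with AGO4 at 0.44 (0.02 to 0.85). The p53 targets (11 genes) had a median of -0.05, collagen and matrix genes (20) 0.01, oxidative phosphorylation (14) 0.01, lipid storage (10) 0.04 and housekeeping genes (7) 0.09.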

How the data were processed

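RNA of 12 samples was measured on Affymetrix exon arrays at transcript level. The deposited values are log2 expression, with 1 value for each probe set on each array; their range (1.14 to 14.27) shows a log scale, and base 2 was inferred. The submitters' processing notes name Partek and hg18. How background, summarization and normalization were handled is not stated in the sources used here, and no rescaling was done before the tests. A gene was represented by its single-symbol probe set with the highest mean over the 12 arrays: 14432 of 22011 probe sets had 1 symbol, 2408 several and 5171 none here. Gene IDs of 14404 were found in a RefSeq table of GRCh38.p14, and 0 symbols were updated. No 2 arrays held identical values.

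A mean per group was fitted to all 12 arrays with limma 3.58.1 in R 4.3.3 (version 1.17.8 of data.table, matplotlib 3.10.9 for plots), with eBayes, 95% intervals and Benjamini-Hochberg adjustment over 14232 genes. The fit was tested on simulated data. The number of arrays limits the precision. Another normalization, filter, variance model, probe set rule or choice of arrays, and a replicate block, were tried as alternatives. Named genes were EPAS1, HIF1A, all HIF-2A targets and HIF pathway genes, called genes, the 10 largest rises in hypoxia and, of other lists, the 3 members with the largest change; some of the last are given by their list's median only. The members and lists were chosen with earlier results of these data known.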

Additional observations from a re-analysis of the deposited data

How the results depend on the processing

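Without rescaling, 1 gene was called lower and 0 higher; quantile and cyclic loess normalization each gave 3 lower and 1 higher, centring arrays on their medians 3 lower and 0 higher. The added calls were ABR and TBC1D13 (limma adjusted p = 0.0339 and 0.038 after centring) and, with the first 2, ERAP1. Quantile normalization with a replicate block, chosen after seeing the data, gave 3 lower and 2 higher, with B3GALT2 added (limma adjusted p = 0.0406). Every other setting called EPAS1 only. Leaving out each array in turn gave EPAS1 changes of -2.67 to -2.53. The number of genes bounded to 1.5-fold was 9706 (11524 genes after filtering) to 12749, and 10171 to 10720 without 1 array. HIF-2A targets called lower numbered 0 in all settings. The count at an unadjusted p under 0.05, 502, rose to 845 with quantile and 927 with cyclic loess normalization. It was 829 without the HIF1A siRNA arrays, 773 with quantile normalization and the block, and 1399 with array weights. Without 1 array it was 362 to 587. The cause of these differences was not tested.

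Deviations of same-numbered control and HIF2A siRNA arrays from their group means correlated at -0.004, 0.417 and -0.143. Those of differently numbered arrays correlated at -0.486 to 0.491. Deviations within a group of 3 sum to 0, so these values cannot settle whether replicate numbers pair the arrays. With the replicate block the calls were 1 lower and 0 higher, and EPAS1 was at -2.59 (limma adjusted p = 1.7e-04). The alternatives for the direct comparison of siRNAs were added after seeing the data. Of 303 induced genes, 229 were called higher, and 140 to 238 without 1 array. A fit on 6 arrays, which has fewer samples and its own estimate of the spread, called 87.

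Depth has no counterpart on arrays: no signal over background was given for these arrays, so the low-level reference stands in for a detection limit. With 3 arrays per group, changes below about 1.23-fold lie inside a typical interval.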
